A study of Mus musculus with 4 samples.

Results

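The 10 transcription factors of the trophectoderm examined here were Cdx2, Eomes, Gata2, Gata3, Elf5, Tead4, Tfap2c, Rhox6, Rhox9 and Hand1. They were chosen by name, and their probes were found by matching the transcript accession that the array files give for each probe to RefSeq symbols. All 10 were among the 19748 named genes on the arrays, with 11 probes, since Eomes had 2 probes and each other factor had 1. The trophectoderm is the outer epithelium of the blastocyst, from which the placenta forms, and embryonic stem cells (ESCs) come from the inner cells and do not normally form it. In the outer cells TEAD4 with its partner YAP drives Cdx2 and Gata3, and CDX2 and OCT4 (Pou5f1) hold each other down. Eomes, Elf5 and Tfap2c keep trophoblast stem cells dividing, and Hand1 acts when they turn into giant cells.

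The series compared haploid with diploid mouse (Mus musculus) ESCs, under a title about the passage from G2 into mitosis. Both groups were female parthenogenetic ESCs, derived from unfertilised eggs and holding a maternal genome only, so that the comparison was of ploidy within parthenogenetic cells and no biparental line was included. The haploid group was 1 array of line 1 and 1 array of line 2, and the diploid group likewise. No treatment, mouse strain, medium, feeder layer or sorting step is named in the labels used here, and haploid ESCs tend to become diploid in culture, so the share of truly haploid cells in the haploid samples is not known. The design text describes the samples of a cell type as independent experiments, and each of them is of another line. The spread behind each p-value, which limma moderates over all features, therefore mixes differences between lines with differences between experiments. These cannot be told apart.

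RNA of each sample was labelled with Cy3 and read on a 1-colour Agilent array, and values are the log2 of the processed signal minus the log2 of that array's 75th percentile, called relative log2 signal below. A value of 0 is the 75th percentile of the array, each unit is a doubling, and a probe's value says nothing about its level against another gene's probe. The 75th percentile of the signal was 526 to 907 intensity units and 53.6% to 65.0% of probes were well above background, with the highest figure of both on diploid array 2. The ESC label was borne out on all 4 arrays: all 20 listed pluripotency factors were well above background on every array. Pou5f1 (OCT4) differed between haploid and diploid cells by -0.03 ± 0.18 (log2 difference ± SE, n = 2 per group), Sox2 by 0.09 ± 0.17 and Nanog by -0.37 ± 0.17, with limma adjusted p of 0.958, 0.855 and 0.468. With normexp background correction of all spots these were 0.40, 0.36 and -0.88. Without 9 spots of high local background on diploid array 2 the same correction gave -0.05, 0.02 and -0.17. All differences below are haploid minus diploid, with the SE of the limma fit.

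Gata3, Gata2, Rhox6 and Rhox9 lay higher on both haploid arrays than on both diploid arrays, Eomes lay lower, Tead4 and Tfap2c overlapped, and Cdx2, Hand1 and Elf5 were not measured in either group as a whole, while 1 background correction (normexp on all spots) turned Gata3 and Gata2 the other way. No factor passed the test. Of the 17963 features compared with limma, 20 had an adjusted p under 0.05 (0.111%), and 0 of the 7 factors that could be tested did. Without adjustment 3 of the 7 (Gata3, Rhox6 and Eomes) were under 0.05, beside 11.7% of all features. The 4 factors whose haploid values were both above the diploid ones stand beside 26% of all features, and the 1 factor with both below stands beside 20.9%. The median difference of the 7 was 0.39, against 0.02 over all features, but with normexp background correction of all spots it was 0.0072. With that correction after the 9 spots of high local background on diploid array 2 were dropped, the median was 0.36. In bulk RNA a larger share of cells that express a gene and more of its RNA per cell cannot be told apart.

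**Figure D1:**
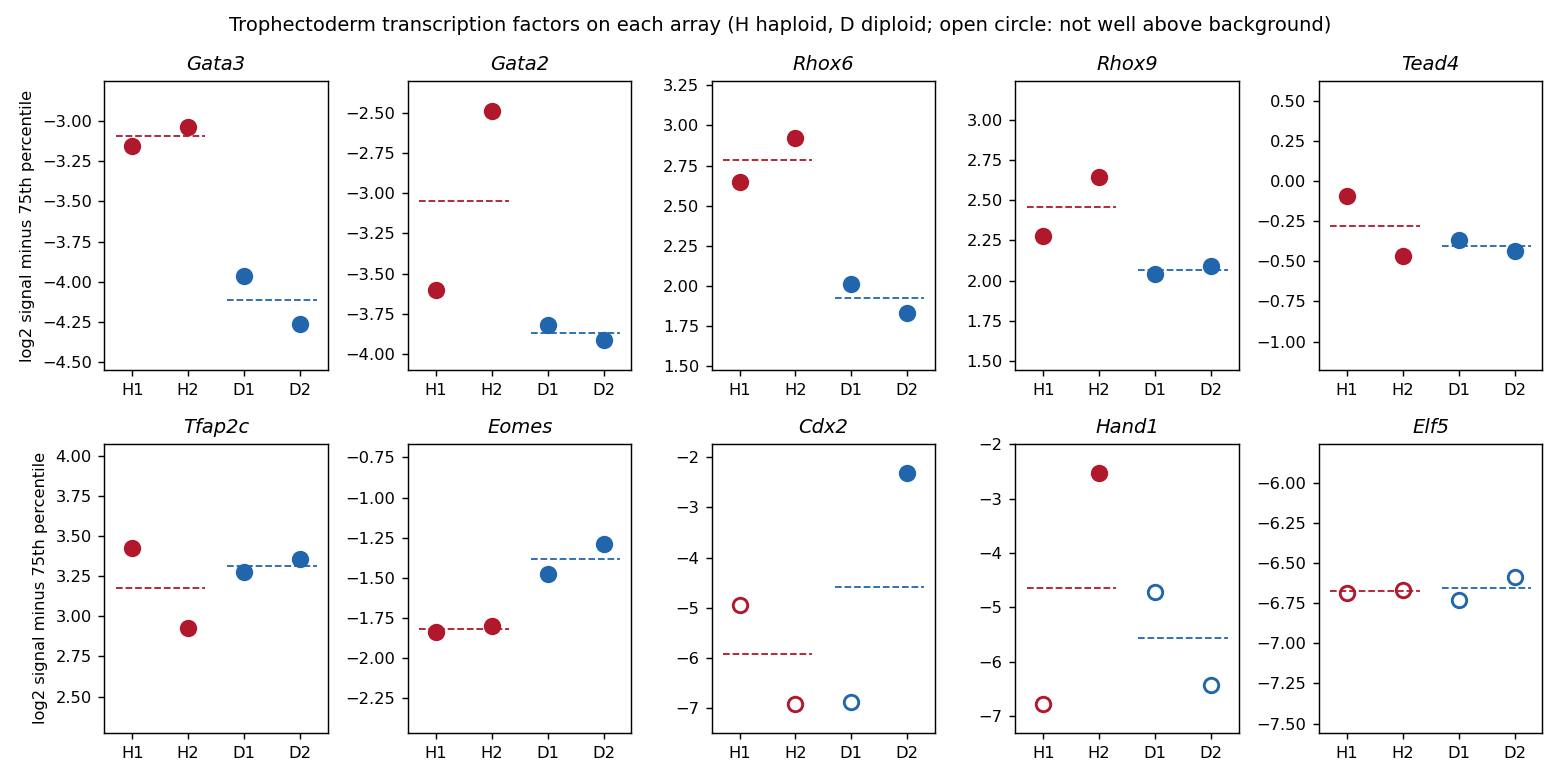
Relative log2 signal (vertical axes, own range per gene, log2 scale) of the first probe of each of the 10 factors on haploid arrays 1 and 2 (H1, H2, red) and diploid arrays 1 and 2 (D1, D2, blue). Open circles were not well above background and dashed lines are group means. Gata3, Gata2 (which both turn with normexp on all spots), Rhox6 and Rhox9 show both red points above both blue points, Eomes shows the reverse, and Cdx2 and Hand1 each have a single filled point, at -2.31 and -2.52.

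Among the tested factors that direct entry into the lineage, Gata3 had the largest difference, which was also the largest of the 7 tested. GATA3 is a zinc finger factor that binds GATA sites and acts beside CDX2 in the outer cells of the embryo. Its relative log2 signal was -3.15 and -3.04 on the haploid arrays and -3.96 and -4.27 on the diploid arrays. The groups were apart, with both haploid arrays close together, and the probe was well above background on all 4 arrays. It was dim, at 59.2 and 67.4 intensity units on the haploid arrays and 39.5 and 47.2 on the diploid arrays. Before background correction and scaling, its spot medians were 121 and 137 on the haploid arrays and 111.5 and 135 on the diploid arrays. The log2 difference was 1.02 ± 0.19, with a 95% interval of 0.57 to 1.47, a 2.03-fold higher signal in haploid cells that did not pass the adjusted threshold (limma adjusted p = 0.139). It lay between 0.87 and 1.17 with any 1 array left out, but turned to -0.55 with normexp background correction of all spots. Diploid array 2 was the only array with spots (9) whose local background was over 3 times the array's median. Without these spots the same correction gave 0.57 for Gata3.

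Gata2, a close relative of Gata3 that is active in trophoblast giant cells and in blood, had the same order of values with a wider spread. Its relative log2 signal was -3.60 and -2.49 in haploid cells and -3.82 and -3.91 in diploid cells. It was dim too, at 43.4, 98.4, 43.6 and 60.2 intensity units on these arrays. Haploid array 2 stood above the other 3 arrays, and haploid array 1 lay only a little above the diploid ones. The difference was 0.82 ± 0.36 (95% interval -0.04 to 1.68, 1.77-fold, limma adjusted p = 0.442). Without haploid array 2 the difference was 0.27, and without haploid array 1 it was 1.38 and passed the threshold (limma adjusted p = 0.0379, with the lone haploid array assumed to vary like the diploid pair). With normexp on all spots Gata2 turned to -0.55, and without the spots of high background it was 0.52.

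The wider GATA family was divided in direction, and none of its members passed the test. It is described because Gata2 and Gata3 belong to it, and Gata6 was named after its values were seen. Gata1, a factor of red blood cells, differed by 1.01 ± 0.17 (limma adjusted p = 0.116), beside Gata2 and Gata3. Gata4, Gata5 and Gata6, which act in endoderm and heart, differed by -0.77 ± 0.28, -0.66 ± 0.17 and -0.96 ± 0.43 (limma adjusted p = 0.375, 0.228 and 0.458). So 3 of 6 tested members were above 0 and the other 3 were below, except with normexp on all spots, where Gata2 and Gata3 were also below 0. Gata4 and Gata6 were dim, each well above background on only 1 haploid array, and were at -0.07 and -0.12 with normexp after the spots of high background were dropped. With 1 array left out Gata4 ranged from -1.12 to -0.43 and Gata6 from -1.63 to -0.29, in both cases without haploid array 2 and haploid array 1. Gata1 was at 0.18 with normexp on all spots and at 0.75 without the spots of high background.

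**Figure D2:**
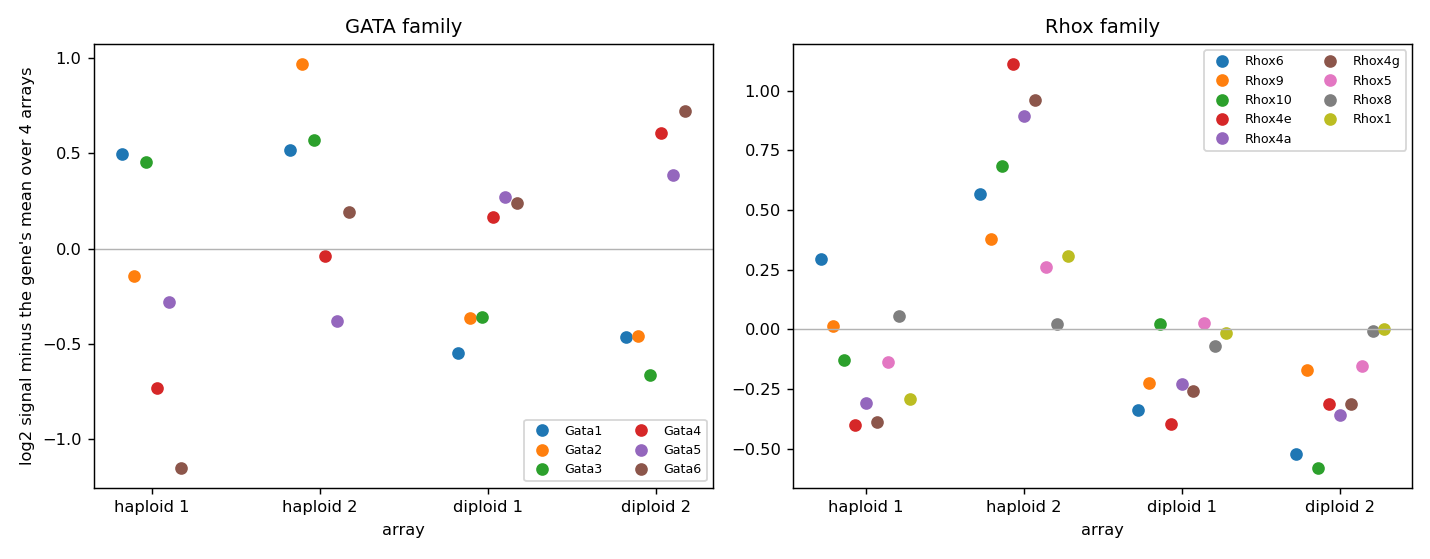
Relative log2 signal minus each gene's own mean over the 4 arrays (vertical axes, log2 scale) for the 6 GATA genes (left) and the 9 tested Rhox genes (right). On the left Gata1 and Gata3 lie above 0 on both haploid arrays and Gata5 lies below (Gata3 turns with normexp on all spots), and on the right the Rhox4 copies and Rhox10 stand highest on haploid array 2.

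Tead4, the partner of YAP and TAZ that starts the trophectoderm programme, showed no separation. Its relative log2 signal was -0.09 and -0.47 in haploid cells and -0.37 and -0.44 in diploid cells. Haploid array 1 was the highest and haploid array 2 the lowest, so that the groups overlapped. The difference was 0.13 ± 0.20 (95% interval -0.35 to 0.60, limma adjusted p = 0.814), which leaves room for a change of up to 0.60 on the log2 scale. Without haploid array 1 it was -0.06. Of 14 tested genes on the list of Hippo control of TEAD, 6 were above 0, 0 were called and the median was -0.10. The coactivators themselves, Yap1 and Wwtr1 (TAZ), differed by -0.08 ± 0.19 and -0.25 ± 0.18, while the YAP targets Ccn1 and Amotl2 differed by 0.73 ± 0.23 and 0.58 ± 0.19 (limma adjusted p = 0.883, 0.589, 0.315 and 0.323). Ccn2, another such target, differed by 0.23 ± 0.17 (limma adjusted p = 0.609), and Ankrd1 was well above background on 1 diploid array only. Yap1 was at 0.10 without haploid array 2 and at 0.23 with normexp on all spots. It was at -0.17 with normexp without the spots of high local background.

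Cdx2, the homeobox factor that defines the trophectoderm, was detected on a single array. Its processed signal was 17.2 and 4.59 intensity units on the haploid arrays and 5.26 and 183 units on the diploid arrays. Only diploid array 2 was well above background, at a relative log2 signal of -2.31 against -4.93, -6.91 and -6.87 on haploid arrays 1 and 2 and diploid array 1. That is 6.17-fold over the next array, from 1 spot. Because no haploid array measured it, the diploid mean is given as at least 1.20-fold higher than the haploid one, a bound that rests on diploid array 2 alone. Without that array the difference, haploid minus diploid, was 0.95 instead of -1.33, between arrays none of which was well above background.

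Among the factors that keep trophoblast stem cells, Eomes was the one whose haploid values both lay below the diploid ones. EOMES is a T-box factor of trophoblast stem cells and of the primitive streak. Its brighter probe read -1.84 and -1.80 in haploid cells and -1.48 and -1.29 in diploid cells (relative log2 signal). Both haploid arrays lay below both diploid arrays, and the haploid arrays were close together. The difference was -0.43 ± 0.17 (95% interval -0.85 to -0.02), 1.35-fold lower, and did not pass the adjusted threshold (limma adjusted p = 0.413). The dimmer Eomes probe had the same order, -5.35 and -4.69 against -4.55 and -4.14, a difference of -0.68, and was not well above background on haploid array 1. Eomes stayed below 0 under each of the 14 alternatives, from -0.56 to -0.28, but many of them could not turn its sign. Other filters, the common floor, other eBayes settings and a replicate block left it at -0.43. Leaving out 1 array cannot turn a gene whose groups do not overlap. The scalings could. They gave -0.56 with normexp on all spots, -0.28 without the spots of high local background, -0.43 with quantile normalization and -0.41 in the deposited value table.

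Other genes of the primitive streak, where Eomes also acts, were dim or divided. T, Mixl1 and Mesp1, which define early mesoderm, did not pass the filter on dim probes. Kdr, also on the mesoderm and amnion list, was well above background on every array. Kdr read 2.84 and 3.04 in haploid cells and 2.52 and 2.36 in diploid cells, so that the groups did not overlap. Its difference of 0.50 ± 0.18 did not pass the adjusted threshold (limma adjusted p = 0.367). Of 12 tested genes on the mesoderm and amnion list, which holds Eomes itself, 6 were above 0 and 6 below. Their median of 0.05 became -0.70 under normexp on all spots and 0.13 without the spots of high local background.

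Tfap2c (AP-2gamma), needed for trophoblast stem cells and also active in germ cells and naive ESCs, was well above background throughout. Its relative log2 signal was 3.42 and 2.93 in haploid cells and 3.27 and 3.36 in diploid cells. The haploid arrays were the highest and the lowest of the 4. The difference was -0.14 ± 0.22 (95% interval -0.67 to 0.38, limma adjusted p = 0.811), and it was 0.11 without haploid array 2 and 0.24 with normexp on all spots. Without the spots of high local background the same correction gave -0.20.

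Elf5, an ETS factor whose promoter is methylated in ESCs and open in trophoblast stem cells, did not rise well above background on any of the 4 arrays. It read -6.69 and -6.67 in haploid cells and -6.73 and -6.59 in diploid cells, which is a background reading and gives no fold. Hand1, a basic helix-loop-helix factor of giant cells and extraembryonic mesoderm, was well above background on haploid array 2 only. Its relative log2 signal was -6.78 and -2.52 in haploid cells and -4.71 and -6.42 in diploid cells, or 4.79, 96.4, 23.5 and 10.6 intensity units. The single high array was 4.57-fold over the next one, and the haploid mean is given as at least 1.27-fold higher than the diploid one, a bound that rests on that array. Without that array the difference for Hand1 was -1.21 instead of 0.92, between arrays none of which was well above background. It was -0.74 with normexp on all spots and 0.57 without the spots of high local background.

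Cdx2 and Hand1 shared this pattern of 1 high array with many other probes. Of 39409 probes, 695 (1.76%) were well above background on 1 array alone and at least 2 log2 units above each of the others. These were spread as 137 and 203 on haploid arrays 1 and 2 and 191 and 164 on diploid arrays 1 and 2. Whether the signals of Cdx2 and Hand1 came from RNA of those samples or from single spots was not tested.

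The X-linked homeobox genes Rhox6 and Rhox9, expressed in placenta and in germ cells, were both higher on the haploid arrays. Rhox6 read 2.65 and 2.92 in haploid cells and 2.01 and 1.83 in diploid cells (relative log2 signal). The gap between the groups was wider than the gap within either. The difference was 0.86 ± 0.19 (95% interval 0.41 to 1.32), a 1.82-fold higher signal that missed the adjusted threshold (limma adjusted p = 0.185). Rhox6 stayed above 0 under each of the 14 alternatives, from 0.72 to 1.08, but most of them could not turn its sign. Other filters, the common floor, the mean of probes, other eBayes settings and a replicate block left it at 0.86. Leaving out 1 array cannot turn a gene whose groups do not overlap. The scalings could. They gave 1.08 with normexp on all spots, 0.80 without the spots of high local background, and 0.82 with quantile normalization and in the deposited value table. Rhox6 passed the threshold under 1 alternative, limma with an intensity trend and robust variance (adjusted p = 0.00396), which called 425 of all features.

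Rhox9 read 2.28 and 2.64 in haploid cells and 2.04 and 2.09 in diploid cells. The diploid arrays were nearly equal, and haploid array 2 stood highest. The difference was 0.39 ± 0.19 (95% interval -0.08 to 0.86, 1.31-fold, limma adjusted p = 0.489), and it ranged from 0.21 to 0.58 with any 1 array left out. Both genes lie on the X chromosome, where the 498 tested features had a median difference of 0.11 and 64.7% were above 0, against 0.01 and 51.8% for 12541 autosomal features.

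The rest of the Rhox cluster was followed on 13 genes, of which 9 (Rhox6 and Rhox9 included) were tested and 0 were called. All 9 were above 0 with a median of 0.56 (0.12 with normexp on all spots), except that 5 were below 0 without haploid array 2, Rhox5 was at -0.16 with quantile normalization and -0.18 in the deposited value table, and Rhox1 and Rhox10 were at -0.67 and -0.41 with normexp on all spots. Without the spots of high local background the same correction gave 0.44 for the median, 0.08 for Rhox1 and 0.44 for Rhox10. Rhox5, the most studied gene of the cluster, differed by 0.13 ± 0.20, and Rhox10 and Rhox4e by 0.56 ± 0.33 and 0.71 ± 0.46 (limma adjusted p = 0.822, 0.536 and 0.569). The Rhox4 copies and Rhox10 were raised on haploid array 2 alone, and the family's median was -0.02 without that array and 0.96 without haploid array 1. Rhox4 copies are nearly alike in sequence, and their probes may share signal. Both haploid arrays lay above both diploid arrays for 3 of the 9, which were Rhox6, Rhox9 and Rhox8, with a difference of 0.08 for Rhox8, a share near the 26% of all features with this order.

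**Figure D3:**
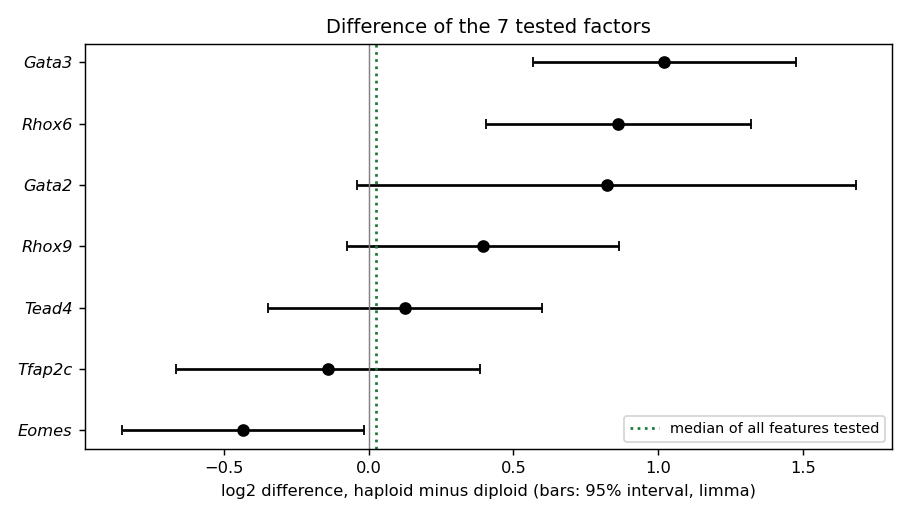
Log2 difference, haploid minus diploid (horizontal axis, log2 scale), of the 7 tested factors (vertical axis) with 95% intervals from limma, n = 2 arrays per group. Under the settings plotted, the intervals of Gata3 (0.57 to 1.47), Rhox6 (0.41 to 1.32) and Eomes (-0.85 to -0.02) exclude 0, and those of the other 4 include it. The dotted line is the median of all features, 0.02.

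The sequence before the start of the genes that separated, and of Cdx2, is given so that the binding motifs of the factors themselves can be read in it. RefSeq promoter windows (build GRCm38.p6) were held for 5 of the 10 factors, and Tead4, Tfap2c, Rhox6, Rhox9 and Hand1 had none. Each line below is the 250 bases before a transcript start, 5' to 3' on the gene's strand, with motif matches in capitals. The Gata3 window is chr2:9878601-9878850 on the minus strand and the Gata2 window, the second of 2 listed for that gene, is chr6:88198414-88198663 on the plus strand. The Cdx2 window is chr5:147307250-147307499 on the minus strand and the Eomes window is chr9:118477939-118478188 on the plus strand.
Gata3: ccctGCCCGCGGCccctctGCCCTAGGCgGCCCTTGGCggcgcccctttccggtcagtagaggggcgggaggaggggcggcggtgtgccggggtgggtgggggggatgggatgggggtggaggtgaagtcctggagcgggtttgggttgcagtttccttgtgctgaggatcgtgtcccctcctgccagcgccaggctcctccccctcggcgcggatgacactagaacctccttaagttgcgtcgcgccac
Gata2: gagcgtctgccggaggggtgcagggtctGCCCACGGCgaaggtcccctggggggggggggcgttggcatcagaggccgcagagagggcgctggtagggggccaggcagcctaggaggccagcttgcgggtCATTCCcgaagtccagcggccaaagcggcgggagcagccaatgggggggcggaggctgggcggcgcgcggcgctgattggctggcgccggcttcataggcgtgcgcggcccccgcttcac
Cdx2: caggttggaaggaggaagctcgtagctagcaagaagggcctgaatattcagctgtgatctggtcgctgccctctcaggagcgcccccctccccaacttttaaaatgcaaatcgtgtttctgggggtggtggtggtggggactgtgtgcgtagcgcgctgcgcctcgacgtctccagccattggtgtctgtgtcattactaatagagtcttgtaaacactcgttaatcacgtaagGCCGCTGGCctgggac
Eomes: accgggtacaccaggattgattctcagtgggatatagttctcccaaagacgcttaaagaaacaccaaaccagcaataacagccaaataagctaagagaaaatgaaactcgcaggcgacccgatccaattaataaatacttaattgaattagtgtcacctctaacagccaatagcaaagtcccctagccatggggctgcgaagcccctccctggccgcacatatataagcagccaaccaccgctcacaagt

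Motifs of 6 families to which the factors belong were searched on both strands. The letters were AGATAA and, as an equal choice, TGATAA for the zinc fingers of the GATA family, GGAATG for the TEAD family and GCCNNNGGC for the AP-2 family of Tfap2c. They were AGGTGT for the T-box family of Eomes, CCGGAAG for the ETS family of Elf5 and CCATAAA for the CDX family. Gata3 held 3 AP-2 matches, which start 246, 231 and 221 bases before the transcript start. Gata2 held 1 AP-2 match 222 bases before the start and 1 TEAD match 120 bases before it, on the opposite strand and so read as CATTCC. No match overlapped another. Cdx2 held 1 AP-2 match 16 bases before the start, and the Eomes window held none of the 6 motifs. The first Gata2 window and the second Elf5 window also held none, and the first Elf5 window had 1 TEAD and 1 T-box match.

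Over all 32851 RefSeq windows of this length, AP-2 letters were found in 13.7%, TEAD in 12.6%, GATA in 16.6%, T-box in 11.8%, ETS in 6.91% and CDX in 2.43%. The Gata3 and Gata2 windows printed above are rich in G and C (70% and 74%), against a median of 52.4% over all windows, 55.2% for Cdx2 and 46.4% for Eomes. The AP-2 letters are themselves rich in G and C. A match is a description of the letters, and a missing one says only that these letters are not in this window.

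The genes around the factors were compared from lists of trophoblast biology, none of which had a called gene. Of 38 other trophoblast regulators 34 were tested, with 22 above 0. Their median was 0.15, or 0.05 with quantile normalization, -0.07 with normexp on all spots and 0.14 without the spots of high local background. Among them Id2, an inhibitor of differentiation factors, differed by 1.09 ± 0.18 and Cited1, a coactivator needed in the placenta, by 1.02 ± 0.21, while Sox15, a factor of giant cells, differed by -0.93 ± 0.17 (limma adjusted p = 0.116, 0.172 and 0.133). Id2 was at 0.44 with normexp on all spots and at 0.92 without the spots of high local background. All 3 had groups that did not overlap. Of the 34, 14 had both haploid arrays higher, beside 26% of all features, and 7 had both lower, beside 20.9%, a share near that of the list.

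Epithelial genes of the trophectoderm were divided. Of 21 tested, 10 were above 0 and the median was -0.12. It was 0.04 with normexp on all spots and -0.007 without the spots of high local background. The keratin pair Krt8 and Krt18, the filaments of simple epithelia and of trophectoderm, differed by 1.15 ± 0.23 and 1.23 ± 0.17, or 2.22-fold and 2.34-fold (limma adjusted p = 0.170 and 0.0781). With normexp on all spots Krt8 was at 0.28 and Krt18 at 1.36, and without the spots of high local background they were at 0.88 and 1.14. Cldn4, a tight junction protein, differed by 0.89 ± 0.26, and Cldn6, of the same family, by -0.63 ± 0.26 (limma adjusted p = 0.291 and 0.423). Cldn4 was at 0.04 with normexp on all spots, 0.65 with normexp without the spots of high local background and 0.52 without diploid array 1. Cldn6 was at -0.96 and -0.30 without diploid arrays 1 and 2.

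Products of differentiated trophoblast were mostly not measured. Of 37 such genes on the arrays, 20 were never well above background, including Tpbpa, a marker of spongiotrophoblast, and Ctsq, a cathepsin of the labyrinth. Prl3d1 (placental lactogen of giant cells) was well above background on 1 diploid array only. Other markers of the analysis plan were measured: Prl3b1, and Synb with its brighter probe, were well above background on all 4 arrays. They differed by -0.06 ± 0.17 and -0.09 ± 0.27 (limma adjusted p = 0.910 and 0.912). So was Gcm1 with its brightest probe, from the list of other regulators, which differed by 0.22 ± 0.17 (limma adjusted p = 0.624). Of the 13 tested, 8 were above 0 with a median of 0.06, which was 0.22 when haploid array 1 was left out. The median was -0.18 under normexp on all spots and 0.12 without the spots of high local background. Wnt6 and Psg23, a ligand and a pregnancy-specific glycoprotein, differed by 1.58 ± 0.22 and 0.94 ± 0.22, and Adm (adrenomedullin, a peptide hormone) by -1.40 ± 0.43 (limma adjusted p = 0.0831, 0.199 and 0.302). Wnt6 turned to -0.13 with normexp on all spots but was at 0.92 without the spots of high local background. Adm was at -0.71 without haploid array 1 and -2.08 without haploid array 2.

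Relatives of the factors outside the list were as mixed. Of 14 tested relatives, 6 were above 0 and the median was -0.04. It was -0.48 with normexp on all spots and 0.0046 without the spots of high local background. Tbx21, a T-box relative of Eomes known from T cells, differed by 1.43 ± 0.23, opposite in sign to Eomes, and Tead3 by 1.19 ± 0.38, beside 0.13 for Tead4 (limma adjusted p = 0.113 and 0.312). Tbx21 and Tead3 turned to -0.38 and -0.64 with normexp on all spots, but were at 0.74 and 0.53 without the spots of high local background. Tead3, well above background on only 1 diploid array, was at 0.62 without haploid array 1 and 1.77 without haploid array 2.

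**Figure D4:**
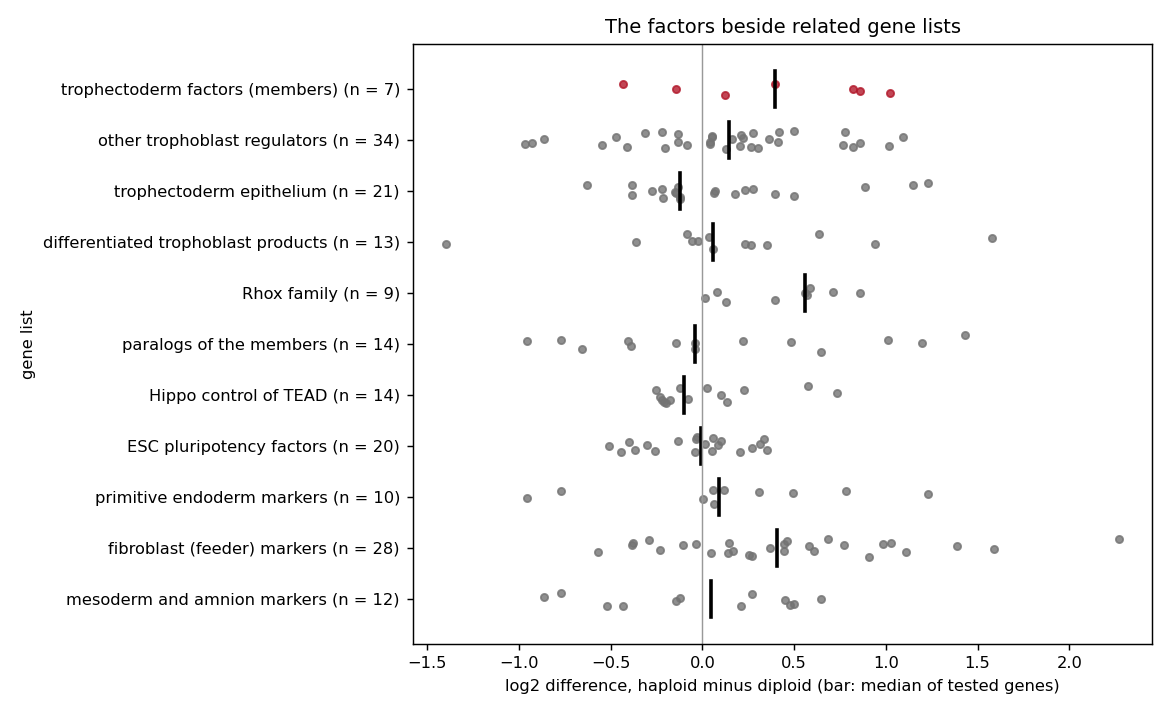
Log2 difference, haploid minus diploid (horizontal axis, log2 scale), of each tested gene (points) in the factor list (red) and in 10 related lists (grey), with the number tested in brackets and the median as a bar. Some genes are in several lists. The factors' median of 0.39 is near the 0.41 of the fibroblast markers, and both fall with normexp on all spots, to 0.0072 and -0.32. Without the spots of high local background the same correction gives 0.36 and 0.32.

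Markers of other cell types were set beside the factors, and none of the listed ones was called. Of 28 tested fibroblast markers, which would show feeder cells, 21 were above 0 and 16 had both haploid arrays above both diploid arrays (26% of all features did). The median was 0.41, which turned to -0.32 with normexp on all spots but was 0.32 without the spots of high local background. The summed signal of the 28 markers was 92.2 to 96.4 times the array's 75th percentile in haploid cells and 58.8 to 74.9 times in diploid cells. Most of it came from Timp1, Fn1 and Vim. Their mean relative log2 signals were 4.97, 4.95 and 3.82 in haploid cells and 4.28, 4.68 and 3.37 in diploid cells. Ccl2, a chemokine, and Thbs1, a matrix protein, differed by 1.59 ± 0.18 and 1.39 ± 0.26 (limma adjusted p = 0.0528 and 0.140), and by 0.59 and 0.44 with normexp on all spots. The feeder markers set in the analysis plan were divided, with limma adjusted p of 0.261 or more. Thy1, Col1a1, Postn, Col1a2 and Twist2 differed by 1.11 ± 0.31, 0.99 ± 0.31, 0.61 ± 0.26, 0.58 ± 0.27 and 0.16 ± 0.28. Col3a1, Dcn and Lum differed by -0.39 ± 0.32, -0.38 ± 0.19 and -0.29 ± 0.31. Prrx1, a factor of mesenchyme, was never well above background. Of 10 tested primitive endoderm markers 8 were above 0, while the lineage factors Gata4 and Gata6 were the 2 below 0. The median was 0.09, or -0.63 with normexp on all spots and 0.13 without the spots of high local background. The list's summed signal was 125 to 127 in haploid cells and 82.9 to 98.1 in diploid cells, but 93.7% to 95.1% of it on each array was Sparc, a matrix protein that fibroblasts also make. Without Sparc it was 6.23 and 6.24 on the haploid arrays and 5.35 and 5.22 on the diploid arrays. Pdgfra and Dab2 were never well above background, and Sox7, Sox17 and Foxa2 did not pass the filter. The part of these cell types in the differences of Gata3, Gata2, Rhox6 and Rhox9 was not tested.

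**Figure D5:**
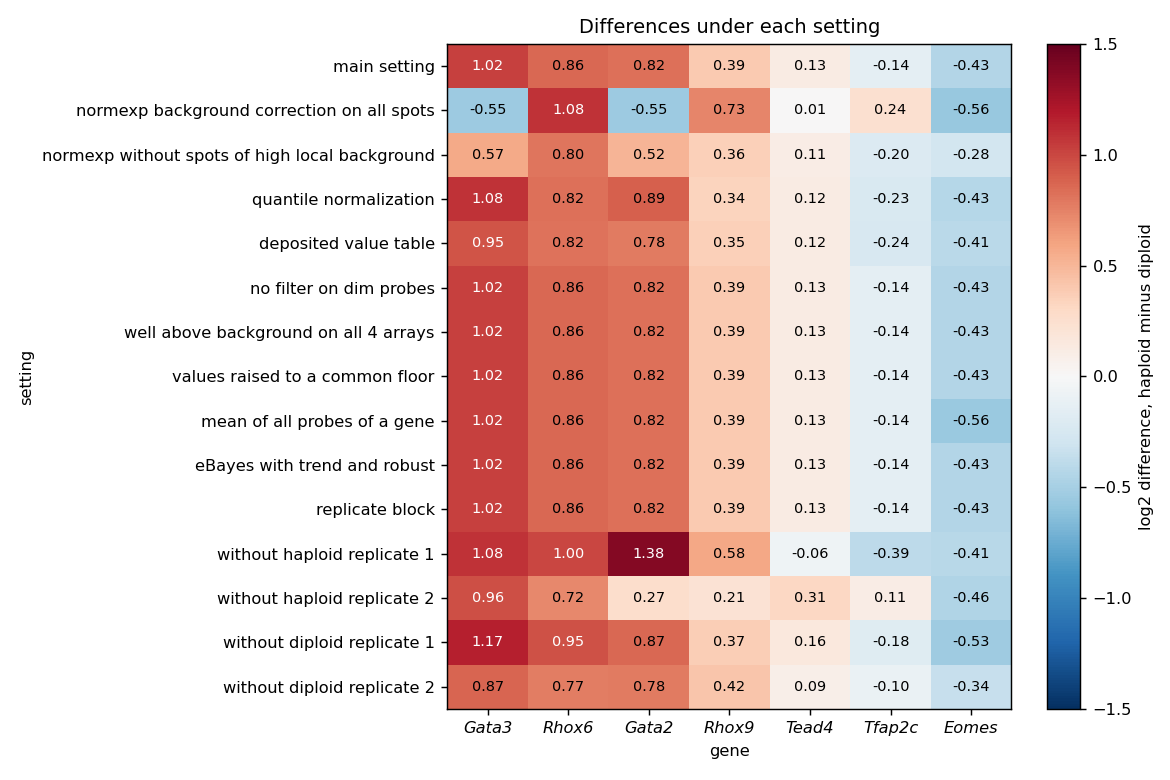
Log2 difference, haploid minus diploid (colour and printed value, log2 scale), of the 7 tested factors (columns) under the main setting and 14 alternatives (rows). Rhox6, Rhox9 and Eomes keep their sign in every row, Gata3 and Gata2 turn to -0.55 in the row of normexp on all spots, Tead4 turns to -0.06 without haploid replicate 1, and Tfap2c turns to 0.24 with normexp on all spots and to 0.11 without haploid replicate 2. The rows of other filters, the floor, eBayes and the replicate block repeat the main values. Rows with 1 array left out cannot turn a gene whose groups do not overlap.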

How the data were processed

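Expression of 4 samples was read from deposited Agilent scanner files, made with Agilent Feature Extraction 11.0.1.1 per the file headers. Their processed signal is the linear intensity of a spot, background-corrected by that software, and the deposited value table, used as an alternative, also holds linear intensity values (column medians 28.4, 28.3, 28.4 and 28.3), with its scaling not given in the sources used here. Its values followed the log2 scanner signal with Pearson correlations across probes of 0.996 to 0.999.

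Control and outlier spots were left out, the signal was taken as log2 minus each array's 75th percentile, and repeated spots were averaged. Of 39409 probes, 26043 were named through RefSeq or Ensembl accessions (GRCm38.p6), giving 19748 symbols. Apart from the promoter windows, no coordinate of a gene or probe is given, since the array design names another build. A probe was kept where both haploid or both diploid arrays were well above background, and the brightest probe stood for its gene, leaving 17963 features. Groups were compared with limma 3.58.1 in R 4.3.3 (lmFit, eBayes, two-sided, Benjamini-Hochberg over all features, threshold 0.05). On simulated data only the mean estimates of planted differences were checked, with no criterion set for the calls. Where no array of a group was well above background, the difference is a bound: the brighter group's mean against the dimmer group's, each dim array raised to its lowest signal well above background. Dim probes can lie above that signal, so bounds are not strict limits. All arrays were on 1 slide and scanned together. Precision is limited by having 2 arrays per group.

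All 10 factors and every probe of theirs are named, and of each other list up to 4 genes with the smallest p, plus Pou5f1, Sox2, Nanog, Yap1, Wwtr1, Krt8 and Krt18. The feeder markers of the analysis plan are named too, and so are its trophoblast markers Prl3b1, Synb and Gcm1. Other genes named (Rhox1, Rhox5, Rhox8, the Rhox4 copies, Gata6, Ccn2, Ankrd1, Timp1, Fn1, Vim and the markers given as not measured or not passing the filter) lie outside this rule and were chosen after their values were seen. Members and lists were chosen with earlier results of these data known. Alternatives were normexp (offset 50, on the spot median signal), quantile normalization, the value table, other filters, a common floor, the mean of probes, trend and robust eBayes, a replicate block, and each array left out.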

Additional observations from a re-analysis of the deposited data

How the results depend on the processing

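Features called by limma numbered 20. They were 0 with normexp on all spots, 109 with normexp after dropping the 9 spots of high local background, 7 with quantile normalization, 4 in the value table, 0 without a filter, 82 with probes above background on all 4 arrays, 0 with a common floor and 425 with trend and robust eBayes. They were 0 to 294 with 1 array left out: 226 and 294 without haploid arrays 1 and 2, and 0 without either diploid array. At an unadjusted p under 0.05 the settings with 0 calls had 120 (normexp on all spots), 1660 (no filter), 2067 (common floor), 2344 and 1201 features (without diploid arrays 1 and 2). The labels do not say whether haploid and diploid samples of the same number share an origin, and they were not paired. Haploid 1 and diploid 1 deviated together with a correlation of 0.0478 across features, which cannot decide this with 2 arrays per group. A replicate block called 2 features and 0 factors. The factors' median of 0.39 became 0.0072 with normexp on all spots and 0.36 after the 9 spots were dropped. It was 0.27 to 0.58 with 1 array left out. Normexp on all spots reversed Gata2 (-0.55), Gata3 (-0.55) and Tfap2c (0.24), with the median of all features at -0.10. Without the 9 spots these factors were at 0.52, 0.57 and -0.20. Leaving out 1 array gave -0.061 to 0.31 for Tead4 and -0.39 to 0.11 for Tfap2c, reversed without haploid array 1 and haploid array 2. Gata2 was called without haploid array 1 and Rhox6 with trend and robust eBayes, and no other factor was called under any setting run. The causes were not tested. Signal over background left Cdx2, Hand1 and Elf5 untested.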
